A study of Mus musculus with 2 samples.

Results

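The genes described here are 10 members of the NF-κB system that carry its signal or limit it. They are the cytoplasmic inhibitors Nfkbia (IκBα) and Nfkbie (IκBε), the nuclear IκB proteins Nfkbiz (IκBζ) and Bcl3, the ubiquitin regulators Tnfaip3 (A20) and Birc3 (cIAP2), and the subunit genes Nfkb1 (p105 and p50), Nfkb2 (p100 and p52), Rel (c-Rel) and Relb. They were chosen by gene symbol, with no measured value in the rule, though earlier results of these data were known. They make up 10 of the 55357 genes listed for each library. Each symbol matched 1 gene, and all 10 genes were detected in both libraries. Over all barcodes their summed counts ran from 2230 unique molecular identifiers (UMIs, each standing for 1 captured transcript) for Nfkbie in library 1 to 73604 for Nfkbia in library 2. All 10 also passed the filter on low counts in each of the fits described below.

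NF-κB factors are dimers of Rel-family proteins that IκB proteins hold in the cytoplasm until IκB kinase marks the inhibitor for degradation. The canonical route, started by cytokine, Toll-like and antigen receptors, releases dimers with RelA or c-Rel, and the non-canonical route acts through NIK (Map3k14) and the processing of p100 to release dimers with RelB. Several of the inhibitors are themselves transcribed under NF-κB, so that the signal limits itself. In the colon the system acts both in immune cells that answer bacterial products and in the epithelium, where it is known for effects on cell survival.

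The counts come from single-cell RNA sequencing of the middle part of the colon of 7-week-old mice, kept free of specific pathogens, that had 3% dextran sulfate sodium for 6 days, an agent (DSS) that damages the lining of the colon. According to the labels there was 1 group, made up of 2 libraries that carry repeat numbers, with all cells loaded and no strain, sex or genotype named. No untreated sample was used here, so no value below describes an effect of DSS. Whether each repeat is another animal is not stated. The fits below allow for the library, so p-values rest on how far class differences vary between the 2 libraries. That spread is pooled over the classes of a fit, and part of it may be technical. It does not measure a spread between animals for 1 class. Of the barcode sequences, 18 occurred in both libraries.

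Promoter sequences are shown because several of these genes are known in mammals as NF-κB targets, so the letters that Rel-family dimers recognise can be set beside the levels. RefSeq promoter windows of build GRCm38.p6, from 250 bases before to 50 bases after a start site, were available for 7 of the 10 genes (Nfkbia, Nfkbie, Bcl3, Tnfaip3, Birc3, Nfkb2 and Rel). On either strand, the κB consensus had a match in 6 of these 7 genes, against 9.55% of 27025 genes with a window, and the stricter form GGGNNTTNCC had one in 5 of them, against 5.48%. The forms overlap: every match to the stricter form in these windows lay on or across a match to the consensus. Birc3 had no match to either in its window, which says only that these letters are not in that window. A match is a description of the sequence and not evidence that a factor was bound. The 130 bases before the start site are given 5′ to 3′ on the strand of the gene, with the matched letters in capitals.
Nfkbia, chr12:55492648-55492777, minus strand: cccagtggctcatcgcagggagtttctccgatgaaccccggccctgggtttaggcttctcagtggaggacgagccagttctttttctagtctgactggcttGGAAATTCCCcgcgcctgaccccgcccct
Nfkbie, chr17:45555570-45555699, plus strand: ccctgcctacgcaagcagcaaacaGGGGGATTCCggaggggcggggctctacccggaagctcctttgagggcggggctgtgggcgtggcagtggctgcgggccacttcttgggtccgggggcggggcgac
Rel, chr11:23770970-23771099, minus strand: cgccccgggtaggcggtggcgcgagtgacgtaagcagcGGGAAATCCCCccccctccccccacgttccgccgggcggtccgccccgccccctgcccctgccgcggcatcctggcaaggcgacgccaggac

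Tnfaip3 had another consensus match 125 to 116 bases before its start site, and Nfkb2 had several over its 3 start sites. For these genes a match to the stricter form is shown with up to 10 bases on each side, and for Bcl3, whose match lies in the first bases after the start site, only the matched letters are shown.
Tnfaip3, chr10:19015411-19015432, minus strand: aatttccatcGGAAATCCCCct
Nfkb2, chr19:46304688-46304717, plus strand: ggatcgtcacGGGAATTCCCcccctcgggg
Nfkb2, chr19:46305695-46305724, plus strand: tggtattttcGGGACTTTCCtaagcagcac
Bcl3, chr7:19822744-19822753, minus strand: GGGAAGTCCC
The Nfkbia match ends 20 bases before the start site and the Tnfaip3 match ends 3 bases before it. In Rel, where 2 matches overlap, the first begins 92 bases before the start site and in Nfkbie 106 bases before it. The second Nfkb2 match lies 225 to 216 bases before another of the gene's start sites.

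In GENCODE M21 on GRCm38 all 10 genes are protein coding. Bcl3 (chromosome 7, 19808462 to 19822770) overlaps Gm16175 and Gm16174 on the other strand, Nfkb2 (chromosome 19, 46304320 to 46312385) overlaps Psd and AC114539.1 on the other strand, and Nfkb1 (chromosome 3, 135584655 to 135691547) overlaps Gm43430 on its own strand. No source used here says whether counting used strand, so reads in these overlaps may be split or misassigned. UMIs at transcript ends are not scaled by length, and levels are therefore compared between cell classes for 1 gene at a time and not between genes.

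After filtering, 5459 cells of library 1 and 8461 of library 2 were clustered with the 10 genes and all list genes left out, although genes that vary with them stayed in. Clusters were named from marker genes, and each class name below means cells that are like that type by those markers. Of the named classes, 9 reached the minimum of 20 cells per library, and they held 34 to 2649 cells per library. Each level is given for library 1 and then library 2, in CPM, that is, UMIs of a gene scaled to a total of 1000000 UMIs in the class and library. Scaling by trimmed mean of M-values (TMM) corrects for a few genes that take up much of a class. The neutrophil sums had the factors farthest from 1, at 0.484 and 0.509, and S100a8 and S100a9 alone made up 291567 and 262081 CPM there. The median of all genes in neutrophils against the other classes moved from -1.25 with plain scaling to -0.13 on the log2 scale. Plain values are given beside many of the results whose order or count they change. A result given without them may still depend on the scaling. As a gauge of free RNA in the droplets, S100a8 and S100a9 stood at 342 to 1478 CPM in 7 of the other 8 classes. In phagocytes they stood at 5411 and 3999 CPM. That class held 56 and 98 cells of an unnamed cluster led by S100a9 and S100a8, so its values are no such gauge. Phagocytes in unnamed clusters stood at 20355 and 17563 CPM, against 776 and 1119 in macrophage-like cells. Their part in the phagocyte levels was not tested. Epithelium, among the 7 classes, also held an unnamed cluster (95 and 40 cells) with S100a9 and S100a8 among its leading genes. Epithelial cells in unnamed clusters stood at 1726 and 5729 CPM, against 358 and 531 in colonocyte-like cells. The epithelial value is therefore no clean gauge either.

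**Figure D1:**
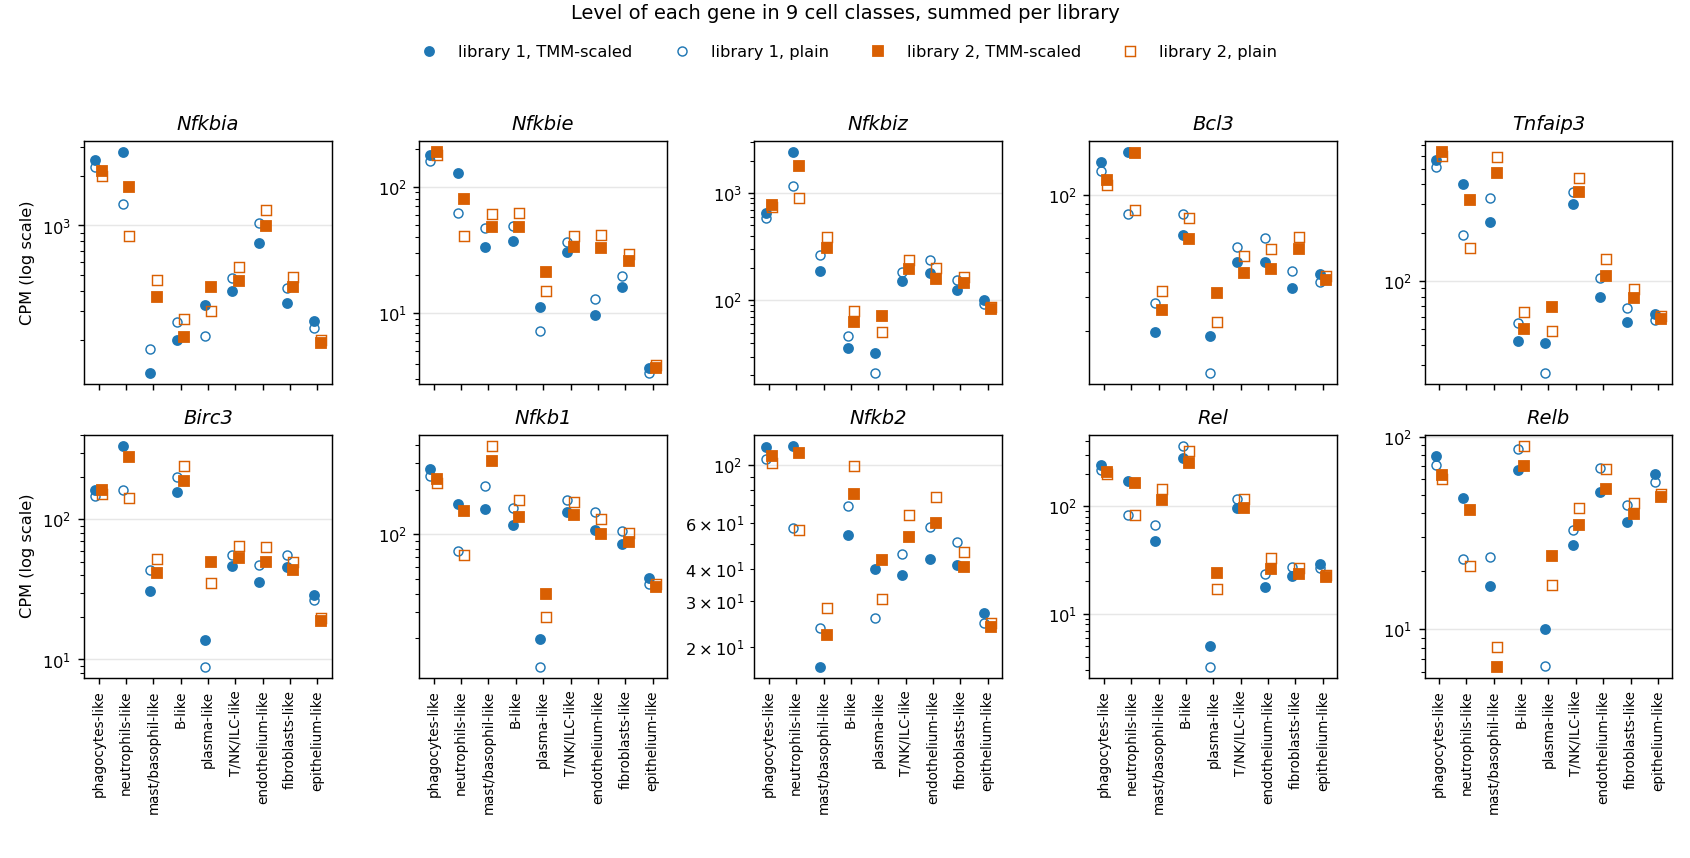
Level of each of the 10 genes in 9 cell classes, in CPM on a log axis. Filled points are TMM-scaled sums and open points are plain sums, with 1 point per library. Phagocytes and neutrophils lie at the top for most genes, neutrophil points are lower with plain scaling, where B cells lead for Birc3 and Relb, mast cells and basophils for Nfkb1 and phagocytes for Bcl3 and Nfkb2.

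Of the cytoplasmic inhibitors, Nfkbia, which captures NF-κB dimers and is resynthesised as the main brake on the signal, was highest in mononuclear phagocytes and neutrophils. Its TMM level was 2519.6 CPM in library 1 and 2133 in library 2 in phagocytes, and 2794 and 1704 in neutrophils. These ranges overlap, and phagocytes were 0.04 ± 0.36 (SE) above neutrophils on the log2 scale (edgeR adjusted p = 0.943). With plain scaling the neutrophil levels were 1350.5 and 865.6 against 2267 and 2010.2 in phagocytes. Endothelial cells followed, at 782 and 986, below neutrophils by a log2 difference of 1.36 ± 0.37 (adjusted p = 0.00974) and above lymphoid cells (397 and 459.9) by 1.04 ± 0.37 (adjusted p = 0.0391). With plain scaling the endothelial levels were 1039 and 1249.8, so that endothelium and neutrophils overlapped. From lymphoid cells down to B cells, the lowest class at 201 and 211, no neighbouring pair in the order differed beyond the spread.

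Nfkbie, an inhibitor that acts later and more slowly than IκBα in the cells where it has been studied, had its highest level in phagocytes, at 177 and 188 CPM. Neutrophils followed at 129 and 80.2, and the libraries of these classes did not overlap. The lead of phagocytes was 0.82 ± 0.24 on the log2 scale (adjusted p = 0.00862). It was no longer called with DESeq2 (largest adjusted p = 0.131). With plain scaling neutrophils were at 62.5 and 40.7 and B cells, at 48.5 and 61.7, came next after phagocytes (160 and 177). Epithelium stood apart at the other end, with 3.68 and 3.72 CPM from 141 and 138 UMIs. It lay below plasma cells, the next class up (11.2 and 21.1), by a log2 difference of 2.16 ± 0.44 (adjusted p = 0.000445). The mean level in phagocytes was 49.3 times that in epithelium, the widest span between highest and lowest class among the 10 genes.

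Nfkbiz and Bcl3 encode nuclear IκB proteins that bind p50 or p52 homodimers at DNA, where IκBζ is known to permit a second wave of inflammatory genes. Nfkbiz was highest in neutrophils, at 2404 and 1776 CPM, against 649 and 781 in phagocytes. The groups did not overlap, and the lead of neutrophils was 1.57 ± 0.26 on the log2 scale (adjusted p = 0.000119). With plain scaling neutrophils still led, at 1162 and 903 against 584 and 736. Phagocytes in turn exceeded mast cells and basophils (188 and 309.5) by 1.54 ± 0.29 (adjusted p = 0.00075), and B cells and plasma cells were lowest, at 35.9 and 62.7 and at 32.5 and 71.6. Bcl3 was at 166 and 165 in neutrophils and at 148 and 119 in phagocytes, a log2 difference of 0.31 ± 0.18 that did not pass the test (adjusted p = 0.158). With plain scaling the order reversed, with 80.2 and 83.7 in neutrophils and 133 and 112 in phagocytes. Phagocytes exceeded the third class, B cells (61.9 and 59.6), by 1.13 ± 0.22 (adjusted p = 0.000233).

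Tnfaip3 encodes A20, which edits ubiquitin chains on signalling proteins such as RIPK1 and so ends the signal. It was highest in phagocytes, at 568 and 635 CPM. Neutrophils (401 and 317), mast cells and basophils (233 and 469) and lymphoid cells (301 and 356) formed a second tier whose neighbours did not differ beyond their spread. Phagocytes led neutrophils by 0.73 ± 0.21 on the log2 scale (adjusted p = 0.0066), and the largest adjusted p against any class was 0.0100, against mast cells and basophils, whose 34 and 43 cells gave 83 and 147 UMIs. This lead was no longer called with DESeq2 (largest adjusted p = 0.0836), with a minimum of 500 genes per barcode (0.0536) or with plain scaling (0.32). With plain scaling phagocytes were at 512 and 598, mast cells and basophils at 329 and 592, lymphoid cells at 361 and 435 and neutrophils at 194 and 161. With TMM scaling, below this tier lay a step of 1.81 ± 0.24 from lymphoid cells to endothelium (79.1 and 107.5, adjusted p = 2.07e-06). The 5 classes from endothelium to B cells lay between 41.2 and 107.5 CPM in single libraries.

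Birc3 encodes cIAP2, a ubiquitin ligase of the TNF receptor complex. It had the highest TMM level in neutrophils, at 337 and 279 CPM, followed by B cells at 156 and 187 and phagocytes at 163 and 161. The lead of neutrophils over B cells was 0.83 ± 0.29 (adjusted p = 0.0259). It was no longer called with DESeq2 (largest adjusted p = 0.0601) or with no doublets removed (0.0777). A minimum of 500 genes per barcode also lost the call (0.0584). This order depended on the scaling: with plain scaling B cells were at 203 and 240.02, above neutrophils at 163 and 142. The next class, lymphoid cells (46.2 and 52.9), lay 1.71 ± 0.26 below phagocytes (adjusted p = 5.04e-05), and from there to epithelium (29.1 and 19.0) no neighbours differed beyond their spread.

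For none of the subunit genes did 1 class exceed every other beyond the spread with TMM scaling. The mean of the highest class was 18.6 times that of the lowest for Rel, 8.57 times for Nfkb1, 6.15 times for Relb and 5.87 times for Nfkb2, against 7.32 times for Bcl3 and 11.3 times for Nfkbia. Nfkb1, whose product p105 is both an inhibitor and the source of p50, was at 275 and 234 CPM in phagocytes and at 149 and 313 in mast cells and basophils (log2 difference 0.16 ± 0.24, adjusted p = 0.699). The libraries of mast cells and basophils enclosed those of phagocytes. The order ran through neutrophils, lymphoid cells, B cells, endothelium and fibroblasts with no neighbours apart, and fibroblasts (86.3 and 88.8) exceeded epithelium (51.1 and 44.4) by 0.87 ± 0.23 (adjusted p = 0.00261). In plain values neutrophils were at 76.8 and 72.4 for Nfkb1, below fibroblasts at 106 and 101. Nfkb2, the precursor of p52 in the non-canonical route, was at 119 and 111 in neutrophils and 118 and 108 in phagocytes (adjusted p = 0.938). Phagocytes exceeded B cells (53.8 and 77.3) by 0.76 ± 0.21 (adjusted p = 0.00567). With plain scaling neutrophils fell to 57.4 and 56.4, below B cells at 69.6 and 99.2.

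Rel, the subunit best known for its role in lymphocytes, was highest in B cells, at 282 and 254 CPM, with phagocytes at 241 and 209 (log2 difference 0.25 ± 0.26, adjusted p = 0.506). The lead of B cells was 0.74 with plain scaling and passed against every class (largest adjusted p = 0.0209). Neutrophils followed at 172 and 164, and exceeded lymphoid cells (96.9 and 96.3) by 0.80 ± 0.25 (adjusted p = 0.013), while with plain scaling they lay below them at 83.1 and 83.3 against 116 and 118. Rel fell off steeply after mast cells and basophils (47.7 and 114.9): epithelium, fibroblasts, endothelium and plasma cells had 4.99 to 29.1 in single libraries. Relb, the subunit of the non-canonical route, was at 79.2 and 63.6 in phagocytes, 66.8 and 70.03 in B cells and 64.1 and 48.5 in epithelium. No neighbours in its order differed beyond the spread. The lowest Relb level was in mast cells and basophils, from only 6 and 2 UMIs.

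A single highest class was thus called for 4 of the 10 genes, Nfkbie, Nfkbiz, Tnfaip3 and Birc3, where all adjusted p-values against the other 8 classes were under 0.05. Over all 14530 genes tested this share was 37.1%, so the count is close to that of genes in general. The calls were other ones in part with plain scaling: Nfkbie and Nfkbiz stayed, Nfkbia (largest adjusted p = 0.0436) and Bcl3 (0.0199) were called in phagocytes and Rel in B cells, and Tnfaip3 and Birc3 (0.0973, with B cells highest) were not called. With DESeq2 only Nfkbiz and Bcl3 (largest adjusted p = 0.0383) had a called highest class, both in neutrophils. With TMM scaling the class with the highest mean level was an immune class for all 10 genes, and with plain scaling too. Most of the classes compared were immune, and the share of all genes with this trait was not worked out. The count is therefore no mark of these 10 genes.

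Each class was next compared with the mean of the other 8. In phagocytes all 10 genes were higher and none lower, against 27.8% and 15% of all genes tested. The log2 differences ran from 1.02 ± 0.16 for Relb (adjusted p = 1.15e-05) to 2.83 ± 0.16 for Nfkbie (adjusted p = 1.47e-11), and Nfkbia was at 2.41 ± 0.22 and Tnfaip3 at 2.34 ± 0.13. All 10 were also higher with plain scaling, where 23.8% of all genes were. In neutrophils 9 of 10 were higher and none lower, against 27.4% and 27.1% of all genes, with Nfkbiz at 3.89 ± 0.15 (adjusted p = 2.07e-12), Birc3 at 2.49 ± 0.18 and Nfkbia at 2.36 ± 0.23, while Relb was at 0.26 ± 0.20 (adjusted p = 0.305). With plain scaling 7 were higher, against 12.9% of all genes, and 2 were lower. Nfkb1 changed its sign there, from 0.54 ± 0.17 (adjusted p = 0.00931) to -0.59 (adjusted p = 0.00325), and Relb was at -0.87 (adjusted p = 0.000535). Relative to the median of all genes, all 10 lay above it in neutrophils under either scaling.

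**Figure D2:**
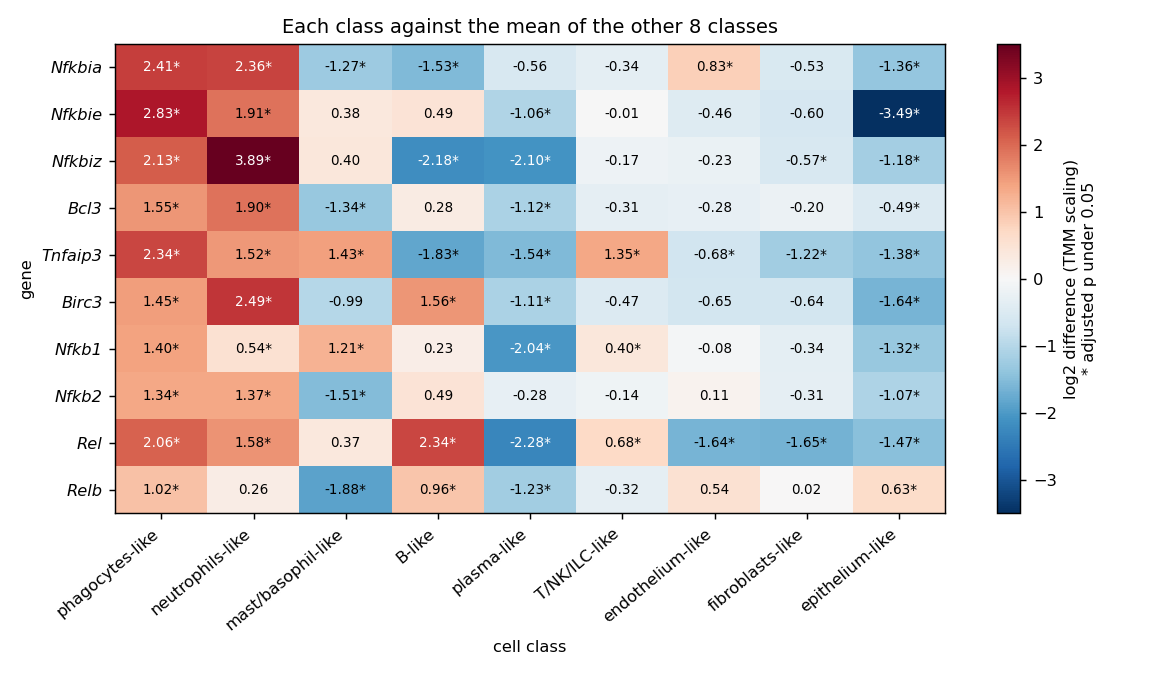
Log2 difference of each gene between a class and the mean of the other 8 classes, with TMM scaling. Red is higher and blue lower, and stars mark adjusted p under 0.05. The phagocyte column is higher throughout, the neutrophil column is higher for all but Relb (with plain scaling Nfkb1 is lower there), and the epithelial and plasma cell columns are mostly lower, with Relb in epithelium as the exception.

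B cells had a split pattern, with Rel higher by 2.34 ± 0.20 (adjusted p = 1.48e-07), Birc3 by 1.56 ± 0.23 (adjusted p = 7.23e-05) and Relb by 0.96 ± 0.22 (adjusted p = 0.00169). In the same cells Nfkbiz (-2.18 ± 0.28), Tnfaip3 (-1.83 ± 0.23) and Nfkbia (-1.53 ± 0.33) were lower. These 3 higher and 3 lower genes compare with 15.6% of all genes higher and 14% lower. With plain scaling, which moved the median of all genes in B cells by 0.42, 7 were higher, against 25.3% of all genes, and the same 3 were lower. Lymphoid cells had Tnfaip3 higher by 1.35 ± 0.14 (adjusted p = 1.23e-07), Rel by 0.68 ± 0.19 and Nfkb1 by 0.40 ± 0.16 (adjusted p = 0.0425), and none lower, against 28.7% of genes higher and 17.1% lower. Mast cells and basophils had Tnfaip3 (1.43 ± 0.18) and Nfkb1 (1.21 ± 0.20) higher, and Nfkbia, Bcl3, Nfkb2 and Relb lower by between 1.27 and 1.88, against 9.99% of genes higher and 7.51% lower. With plain scaling 3 were higher, against 17.6% of all genes, and 2 lower. In plasma cells 8 of 10 were lower and none higher, against 15.6% and 18.6% of genes, with Rel at -2.28 ± 0.35 and Nfkb1 at -2.04 ± 0.25, while Nfkbia (-0.56 ± 0.30, adjusted p = 0.186) and Nfkb2 (-0.28 ± 0.20, adjusted p = 0.331) did not pass. All 10 were lower in plasma cells with plain scaling, where 9.68% of all genes were higher. That scaling moved the median of all genes there from -0.16 to -0.77. None of the 10 genes lay above this median under either scaling.

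Among non-immune classes, epithelium had 9 of 10 genes lower, against 21.6% of all genes, from -0.49 ± 0.15 for Bcl3 to -3.49 ± 0.24 for Nfkbie. Relb was the exception, higher by 0.63 ± 0.16 (adjusted p = 0.00134), where 36.6% of all genes were higher. Endothelial cells had Nfkbia higher by 0.83 ± 0.26 (adjusted p = 0.0298) and Tnfaip3 (-0.68 ± 0.20) and Rel (-1.64 ± 0.32) lower, against 21.2% of genes higher and 12.7% lower. With plain scaling 3 were higher there, against 32% of all genes, and 1 was lower. Fibroblasts had Nfkbiz (-0.57 ± 0.22), Tnfaip3 (-1.22 ± 0.19) and Rel (-1.65 ± 0.28) lower and none higher, against 19% lower and 29.4% higher among all genes. With plain scaling Nfkbiz did not pass in fibroblasts (-0.29, edgeR adjusted p = 0.275).

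The rest of the pathway was followed with 45 genes for remaining subunits and IκB proteins, kinases, adaptors and negative regulators, all of which were tested at class level. In phagocytes the median log2 difference of the 45 was 0.96, against 0.07 over all genes. There 33 were higher and none lower, against 27.8% and 15% of all genes. They included Card9, an adaptor for C-type lectin receptors (5.06, adjusted p = 2.62e-09), Tnip3, which encodes a partner of A20 (3.92), and Malt1, a protease of the pathway (3.19). All 3 remaining subunit and IκB genes were higher in phagocytes: Nfkbid (2.05), Nfkbib (1.48) and Rela, the main activating subunit (0.88). In neutrophils 25 of the 45 were higher and 5 lower, against 27.4% and 27.1% of all genes. The higher ones were led by Card9 (5.96), Nfkbid (3.41) and the Toll-like receptor adaptor Myd88 (3.15). The balance turned with plain scaling, with 14 higher and 20 lower, where 12.9% of all genes were higher. The median log2 difference was then -0.42 in place of 0.71, and that of all genes was -1.25 in place of -0.13. In B cells 11 of 45 were higher and 9 lower, against 15.6% and 14% of all genes. The higher ones included Traf5 (3.32) and Map3k14, the kinase of the non-canonical route (1.42). With plain scaling 19 were higher and 3 lower, where 25.3% of all genes were higher. Epithelium had 7 higher and 19 lower, against 36.6% and 21.6% of all genes. Tnip3 (3.61), Tradd, an adaptor of TNF receptor 1 (2.47), and Tax1bp1 (1.49) led the higher ones.

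A list of 28 genes known as NF-κB targets was described in the same way. Like the list of 45 genes, it was chosen with earlier results of these data known. In phagocytes 26 of 28 were higher, against 27.8% of all genes, with a median log2 difference of 3.62. Il12b (8.65), Vcam1 (6.18) and Il1b (5.78) led them. In neutrophils 19 were higher and 1 lower, against 27.4% and 27.1% of all genes, with a median of 2.26. The chemokine gene Cxcl2 (6.06) led the higher ones. With plain scaling 13 were higher and 4 lower, with a median of 1.13, where 12.9% of all genes were higher. Endothelium, where Nfkbia was the 1 member higher, had 12 targets higher and 8 lower, against 21.2% and 12.7% of all genes. Vcam1 (6.40), Cxcl1 (5.30) and Ccl2 (4.48) were in front. With plain scaling 13 were higher and 4 lower in endothelium, where 32% of all genes were higher. Epithelium had 4 targets higher and 17 lower, against 36.6% and 21.6% of all genes. Among the higher ones were the chemokine gene Ccl20 (5.55) and Nos2 (1.77). The 18 genes of a list of responses to tissue dissociation summed to 10611 and 12769 CPM in phagocytes, 10304.5 and 13105 in mast cells and basophils, 10076 and 9716 in endothelium and 8218 and 8236 in neutrophils. They summed to 8427 and 7037 in fibroblasts and to 5646 to 6512 in single libraries of lymphoid cells, epithelium, plasma cells and B cells. Their part in the differences was not tested.

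Within the mononuclear phagocytes, 4 subclasses were compared: monocyte-like, macrophage-like, conventional dendritic-like and mature dendritic-like cells. In monocyte-like cells (261 and 1012 cells) 8 of the 10 genes were higher than the mean of the other subclasses and none lower, against 21.4% and 17.3% of all genes. Nfkbia was at 4995 and 3239 CPM there, against 1794 and 1628 in macrophage-like cells and 535 and 586 in conventional dendritic-like cells. The libraries of these subclasses did not overlap, and monocyte-like cells were higher by 2.05 ± 0.13 on the log2 scale (adjusted p = 1.09e-08). Tnfaip3 (1.76 ± 0.13), Nfkbiz (1.65 ± 0.14) and Bcl3 (1.36 ± 0.13) followed. Rel (-0.07 ± 0.14) and Relb (0.15 ± 0.14) did not pass, and with plain scaling Rel was lower (-0.42, adjusted p = 0.0166). The monocyte-like subclass was mixed, in other proportions in each library. Its cluster led by Cxcl3 held 187 and 171 cells, that led by Ccr2 39 and 266 and that led by Cxcl10 19 and 320. A cluster led by Ptges, with Nos2, held 16 and 255, and scored 1.06 as monocytes and 0.70 as mature dendritic cells. The part of this mixture in the levels was not tested.

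**Figure D3:**
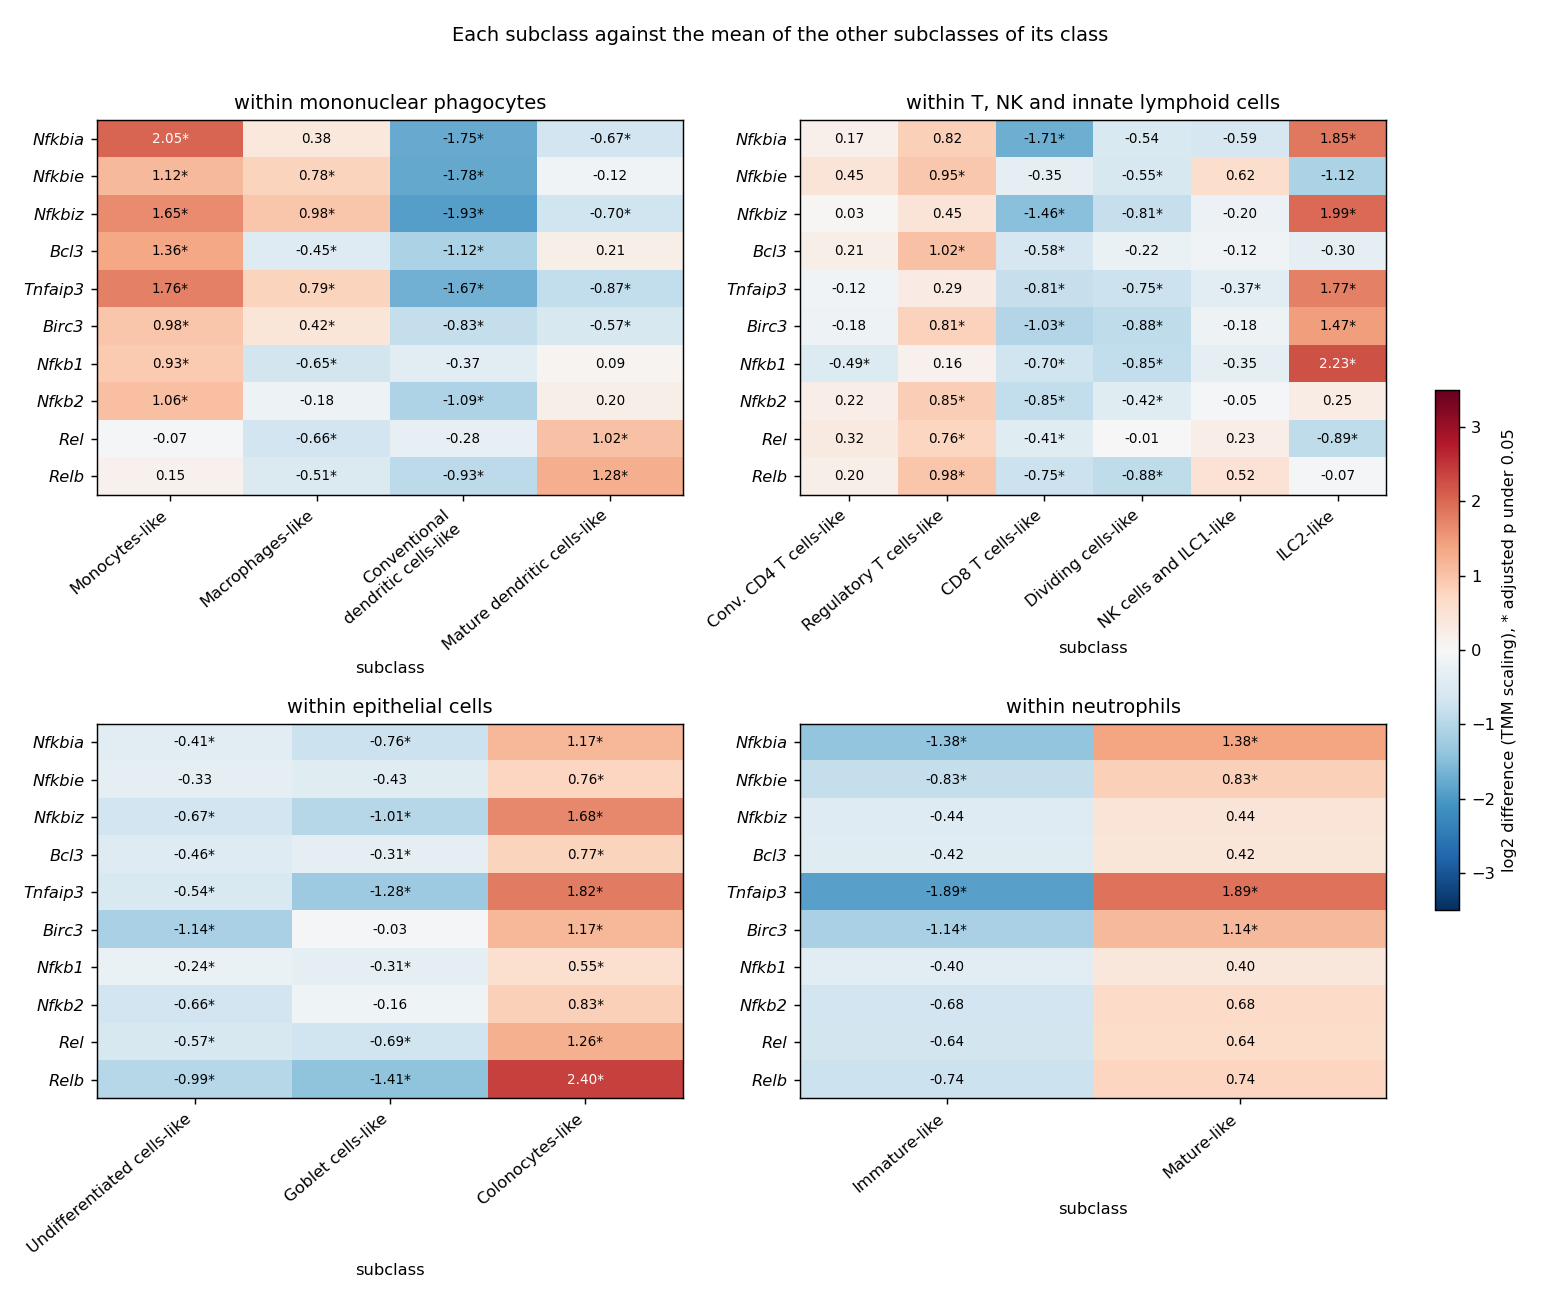
Log2 difference of each gene between a subclass and the mean of the other subclasses of its class, with TMM scaling, for phagocytes, lymphoid cells, epithelium and neutrophils. Stars mark adjusted p under 0.05. Monocyte-like and colonocyte-like cells are higher for most genes (with plain scaling 6 of 10 in colonocyte-like cells, where Nfkb1 is lower), and mature dendritic-like cells are higher for Rel and Relb.

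Mature dendritic-like cells, led by Fscn1, Ccr7 and Tbc1d4, had Rel and Relb higher. Rel was at 448 and 400 CPM, against 260 and 222 in monocyte-like and 175 and 176 in macrophage-like cells, and was higher by 1.02 ± 0.13 (adjusted p = 4.44e-05). Relb was at 169 and 125, against 85.9 and 75.6 in monocyte-like cells, and was higher by 1.28 ± 0.15 (adjusted p = 9.94e-06). Nfkbia, Nfkbiz, Tnfaip3 and Birc3 were lower there, by between 0.57 and 0.87. These 2 higher and 4 lower genes compare with 9.28% and 8.9% of all genes. With plain scaling Birc3 did not pass (-0.44, edgeR adjusted p = 0.0614). Map3k14, the kinase upstream of p100 processing, was higher in the same cells by 2.48 (adjusted p = 2.47e-07). The name of this cluster of 98 and 129 cells rests on markers of which only 42.3% of its cells held at least 2.

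Conventional dendritic-like cells were few (27 and 50 cells). They were led by Xcr1, with genes of cell division such as Pclaf and Top2a also among the leading genes. Of the 10 genes 8 were lower there and none higher, against 13.3% and 13.9% of all genes. Nfkbiz was at -1.93 ± 0.18 and Nfkbie at -1.78 ± 0.18, and the part of dividing cells in these differences was not tested. Nfkb1 (-0.37 ± 0.14, adjusted p = 0.06) and Rel (-0.28 ± 0.15, adjusted p = 0.201) did not pass. Macrophage-like cells (274 and 1155 cells) were divided: Nfkbiz (0.98 ± 0.14), Tnfaip3 (0.79 ± 0.14), Nfkbie (0.78 ± 0.13) and Birc3 (0.42 ± 0.13) were higher, and Rel, Nfkb1, Relb and Bcl3 were lower by between 0.45 and 0.66. Of all genes 13% were higher and 8.74% lower. With plain scaling Nfkbia was higher too (0.44, edgeR adjusted p = 0.0164), where 14.3% of all genes were. This subclass was mixed: 82 and 342 of its cells lay in a cluster led by Adgre4, Arg1 and Treml4. A cluster led by the interferon-response genes Ifit1 and Rsad2 held 63 and 157. It scored 1.24 as macrophages and 1.05 as monocytes. Clusters led by Cxcl13 (98 and 130 cells) and by Ccl8 (8 and 31) scored highest as macrophages but stayed unnamed and were left out. The dissociation list stood at 12468 and 15723 CPM in macrophage-like cells, 9243 and 10681 in monocyte-like cells and 9692 and 10451 in mature dendritic-like cells and 8785 and 9530 in conventional dendritic-like cells, and its part in these differences was not tested. In plain values of single clusters, Nfkbia ran from 77 and 277 CPM in plasmacytoid dendritic-like cells to 4197 and 3417 in the monocyte-like cluster led by Cxcl3.

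Among lymphoid cells, ILC2-like cells had the largest differences of the 6 subclasses, with only 76 cells in library 1 and 22 in library 2. Nfkb1 was at 832 and 919 CPM, against 138 to 302 in single libraries of the other 5 subclasses, a log2 difference of 2.23 ± 0.15 (adjusted p = 3.69e-23). Tnfaip3 was at 1344 and 1743 (1.77 ± 0.13), and Nfkbiz at 715 and 1486 (1.99 ± 0.14). Nfkbia, at 1657 and 3013 (1.85 ± 0.25), and Birc3 (1.47 ± 0.23) were also higher, while Rel, with 24 and 2 UMIs, was lower (-0.89 ± 0.30, adjusted p = 0.0348). These 5 higher and 1 lower genes compare with 6.28% and 7.69% of all genes, and with plain scaling the same 5 were higher and none lower. ILC2-like cells also carried the most of the dissociation list among the lymphoid subclasses, at 11321 and 18586 CPM against 5384 to 8771 in single libraries of the other 5 subclasses, and 8 of its 18 genes were higher there, Dusp1 by 2.11. Its part in these differences was not tested.

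Regulatory T-like cells (85 and 30 cells) had 6 of 10 genes higher and none lower, against 5.49% and 2.2% of all genes. Bcl3 was at 120 and 93.8 CPM against 40.4 to 72.7 in single libraries of the other subclasses (1.02 ± 0.24, adjusted p = 0.00191). Relb (0.98 ± 0.29), Nfkbie (0.95 ± 0.31), Nfkb2 (0.85 ± 0.26), Birc3 (0.81 ± 0.22) and Rel (0.76 ± 0.20) were the other 5. In library 2 these rested on 10, 9, 17, 16 and 15 UMIs in that order. Rel was at 231 and 141 CPM, against 152 and 145 in NK and ILC1-like and 180 and 140 in conventional CD4 T-like cells. With plain scaling Nfkbiz was higher in regulatory T-like cells too (0.53, edgeR adjusted p = 0.0312), where 6.12% of all genes were. CD8 T-like cells (913 and 967 cells) had 9 of 10 lower and none higher, against 5.64% and 9.26% of all genes, with Nfkbia at 229.5 and 343.5 CPM (-1.71 ± 0.27) and Nfkbiz at 116 and 159 (-1.46 ± 0.12). Nfkbie did not pass there (-0.35 ± 0.19, adjusted p = 0.214). This subclass was mixed: 417 and 306 of its cells lay in a cluster led by Klra6 and Klra7, which encode NK cell receptors, with Trgv1 of the gamma delta T cell receptor among its leading genes. A cluster led by Gzma, with Trgv7, held 195 and 41 cells, and a cluster led by the S-phase genes Cdc6 and Mcm3 held 22 and 69. The cluster led by Cd8b1, with Cd8a among its leading genes, held 279 and 551. In dividing cells 7 of 10 were lower and none higher, against 11.3% and 23.2% of all genes. Conventional CD4 T-like cells had Nfkb1 lower (-0.49 ± 0.12) and the cluster of NK and ILC1-like cells, which was also led by Il22, had Tnfaip3 lower (-0.37 ± 0.13, adjusted p = 0.0405), against 4.75% and 4.21% of all genes. No gene was higher in these 2 clusters, against 11.5% and 8.11% of all genes. With plain scaling the latter cluster had 1 gene higher, Nfkbie, and none lower, where 9.96% of all genes were higher. ILC2-like cells, with the high levels given above, were part of the mean in both comparisons. Nfkb1 in conventional CD4 T-like cells (185 and 172 CPM) lay above CD8 T-like (152 and 163) and dividing cells (138 and 149). It lay below NK and ILC1-like cells (210 and 180). Tnfaip3 in NK and ILC1-like cells (425 and 466) lay above CD8 T-like (309 and 381) and dividing cells (311 and 406). Conventional CD4 (488 and 538) and regulatory T-like cells (563 and 769) had more.

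In the epithelium, colonocyte-like cells were compared with goblet-like and undifferentiated cells. Relb had the largest difference: its level was 121 and 96.7 CPM in colonocyte-like cells, 19.8 and 17.4 in goblet-like cells and 27.4 and 18.5 in undifferentiated cells, with no overlap. The log2 difference was 2.40 ± 0.10 (adjusted p = 3.7e-08). Tnfaip3, at 107 and 99.6 against 21.7 to 36.99 in the other libraries, was higher by 1.82 ± 0.11 (adjusted p = 2.88e-07), and Nfkbiz, at 170 and 139 against 42.3 to 52.2, by 1.68 ± 0.09 (adjusted p = 1.75e-07). All 10 genes were higher and none lower with TMM scaling, against 39.4% and 37.8% of all genes. With plain scaling, which moved the median of all genes by -0.80, 6 were higher, against 20.7% of all genes, and Nfkb1 was lower (-0.25, adjusted p = 0.0367). Bcl3 (-0.029), Nfkbie (-0.032) and Nfkb2 (0.025) did not pass. Relb (1.60), Tnfaip3 (1.02) and Nfkbiz (0.88) stayed the highest under that scaling.

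Goblet-like cells had 7 of 10 genes lower and none higher, against 24.7% and 27.8% of all genes, with Relb at -1.41 ± 0.12 and Tnfaip3 at -1.28 ± 0.13, and undifferentiated cells had 9 lower and none higher, against 32.1% and 27.2%, with Birc3 at -1.14 ± 0.16. With plain scaling 4 genes were lower in goblet-like and 2 in undifferentiated cells, where the medians of all genes were 0.34 and 0.43. Of all genes 42.2% and 48.4% were then higher, against none of the 10 in goblet-like and 1 in undifferentiated cells. Nfkb1 was then called higher in undifferentiated cells (0.25, adjusted p = 0.0462), below the median of all genes there (0.43). The colonocyte-like clusters were unevenly filled by the libraries, with 206 cells against 2 in one and 16 against 194 in another. In the cluster led by Atp12a and Nos2 (229 and 129 cells) the plain Rel level was 61.9 and 95.02 CPM and that of Birc3 52.6 and 65.1. In the cluster led by Mal and Gm21885 (132 and 125 cells) Rel was at 11.4 and 17.0 and Birc3 at 17.9 and 11.7, while Relb was at 81.2 and 101.5, against 107.6 and 125 in the cluster led by Atp12a. These clusters were chosen after their values were seen and were not tested. The epithelial class also held 95 and 40 cells of an unnamed cluster whose leading genes included S100a8 and S100a9, with plain Nfkbia levels of 438 and 448 CPM, and their part in the epithelial level was not tested.

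Neutrophils were divided into immature-like cells (179 and 258), led by Camp and Ltf, and mature-like cells (68 and 271), led by Cxcl10 and by interferon-response genes. Nfkbia was at 2933 and 1296 CPM in mature-like and at 1058 and 527 in immature-like cells, and the ranges of the subclasses did not overlap. The log2 difference was 1.38 ± 0.21 (adjusted p = 3.55e-05). Tnfaip3, at 396 and 307 against 123 and 72.0, was higher by 1.89 ± 0.23 (adjusted p = 1.25e-06). Birc3 was higher by 1.14 ± 0.23 and Nfkbie by 0.83 ± 0.26 (adjusted p = 0.0335), and no gene was lower, against 9.37% of all genes higher and 4.09% lower. Nfkbiz, at 1513 and 934 against 1058 and 721, did not pass (0.44 ± 0.21, adjusted p = 0.17). With plain scaling Rel was also higher in mature-like cells (0.77, edgeR adjusted p = 0.0494), where 10.5% of all genes were. The dissociation list stood at 11909 and 9059 CPM in mature-like and at 6379 and 6371 in immature-like cells, with 6 of its 18 genes higher in mature-like cells, and its part was not tested. This fit had 1 residual degree of freedom. A further 196 and 404 neutrophils lay in clusters that stayed unnamed, some of them led by genes of T cells or goblet cells.

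The share of cells with at least 1 UMI was compared after each cell had been thinned to 1000 UMIs, with shallower cells left out. For Nfkbia it was 67% (95% exact binomial interval 63.7 to 70.2) and 71.7% (70.0 to 73.4) in phagocytes, and 67.7% (63.1 to 72.1) and 49.5% (46.2 to 52.8) in neutrophils. Unthinned, these shares were 89.9% and 93.8% in phagocytes and 95.5% and 84.6% in neutrophils. It was 46.7% and 53% in endothelium, above neutrophils in library 2, and 20.1% and 15.6% in epithelium, where the unthinned shares were 81% and 82.2% at medians of 17815 and 23817 UMIs per cell. Nfkbiz was found in 66.8% (62.2 to 71.2) and 54.5% (51.2 to 57.7) of thinned neutrophils, against 39.2% and 46.4% of phagocytes and 2.86% and 6.88% of B cells. Nfkbie was found in 15.3% and 15.5% of phagocytes and in 0.615% (0.307 to 1.1) and 0.332% (0.0906 to 0.848) of epithelial cells. No class is known to lack these genes, so no share of free RNA alone could be set beside them, and the intervals cover counting error only. Median depths before thinning were 9733 and 7930 UMIs in phagocytes, 6791 and 5694 in neutrophils and 2905 and 2347 in B cells.

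**Figure D4:**
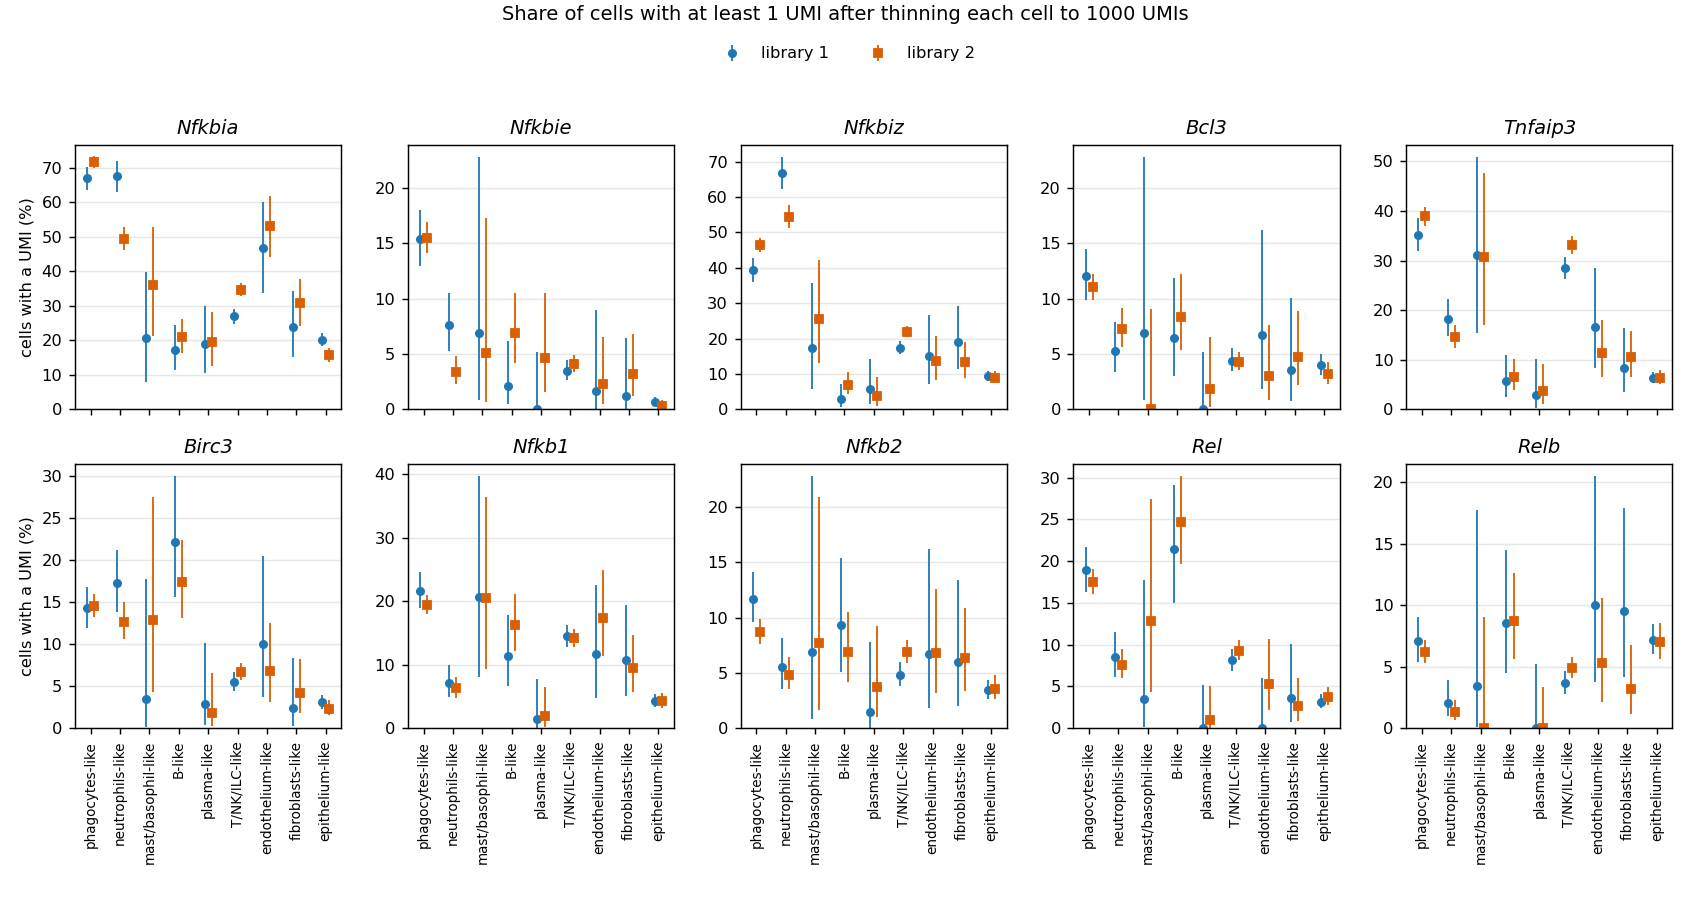
Share of cells with at least 1 UMI of each gene, in percent, after each cell was thinned to 1000 UMIs, by class and library. Bars are exact binomial 95% intervals over cells and cover counting error only. Neutrophils hold the highest share of Nfkbiz in both libraries, and for Nfkbia endothelium (53%) lies above neutrophils (49.5%) in library 2.

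In thinned cells a median of 2 of the 10 genes were detected per phagocyte and per neutrophil in both libraries, 1 per lymphoid cell and 0 per epithelial cell. At least 5 were found together in 8.89% and 9.45% of phagocytes and in 3.46% and 1.87% of neutrophils. Correlations of the genes across thinned cells of 1 class and library were weak. Over 45 gene pairs the median was 0.0343 to 0.0413 in phagocytes, neutrophils and lymphoid cells of each library. The highest values in these classes were 0.357 and 0.325, for Nfkbia with Tnfaip3 in 434 and 909 neutrophils, and in phagocytes they were 0.318 and 0.286, for Nfkbia with Nfkbiz in 821 and 2634 cells. With so few UMIs per cell such values describe the counts and are no finding.

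With 1 value for each of the 18 sums of class and library, which share libraries and depth, Pearson correlations of log2 TMM levels placed Bcl3 and Birc3 closest together among the 10 genes (0.88), with Bcl3 and Nfkb2 next to them (0.88). Relb was the least like partner of Nfkbia (0.33), Nfkbie (0.15), Nfkbiz (0.16), Nfkb1 (0.15) and Tnfaip3 (-0.083), and its own closest partner was Bcl3 (0.65). Outside the 10 genes, and among 9124 genes with a mean of at least 10 CPM, the gene most like Nfkbia was N4bp1 (0.96), followed by Cflar (0.95) and Hmox2 (0.92). The closest to Nfkbiz were Synj1, Dusp1 and Zyx (0.94 to 0.95), to Tnfaip3 Lcp2, Ccl4 and Fyb (0.94 to 0.95), to Rel Btg1, Dclre1c and Baz1a (0.93 to 0.95) and to Bcl3 Kdm7a, Gm42462 and Ehd1 (0.94 to 0.95). Nfkbie was closest to Tm6sf1 (0.93), Birc3 to Tlr7 (0.94), Nfkb1 to Crtc3 (0.92), Nfkb2 to Tor1aip1 (0.91) and Relb to Tfeb (0.89). These neighbours depended in part on the scaling. In plain values Birc3 and Rel were the closest of the 10 genes (0.865), just ahead of Bcl3 and Birc3 (0.863). The genes most like Birc3 were then Ep300, Ptpn1 and Mtmr3, and Camk2d was closest to Relb (0.89).

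The 2 libraries were set side by side without a test. In phagocytes, the class with the most cells in library 2, the plain level in library 2 was 0.84 to 1.26 times that in library 1 for all 10 genes. In neutrophils it was 0.64 times for Nfkbia, 0.65 for Nfkbie and 0.78 for Nfkbiz, and 0.83 to 1.04 for the other 7. The widest ratio was that of Rel in plasma cells, 5.24, from 4 UMIs in library 1 and 26 in library 2. Nfkbia in mast cells and basophils had 45 and 115 UMIs, a ratio of 2.60.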

How the data were processed

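The authors deposited UMI counts per gene and cell barcode for each library, aligned to mm10. The submitters' processing notes name Cell Ranger 8.0.0, whereas the file headers give 7.0.0. No source used here says whether introns or strand entered the counting. The libraries held 6597 and 9611 barcodes with 76622643 and 94204110 UMIs, and shared 18 barcode sequences. Their counts differed by far more than sampling noise (chi-square per degree of freedom 198 over 23187 genes), so they were treated as 2 samples. The 10 genes and all lists were chosen with earlier results of these data known.

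Barcodes with under 200 genes (36 and 9) or at least 20% mitochondrial counts (840 and 475) were left out. The top Scrublet scorers were removed as doublets at a rate of 0.8% per 1000 barcodes (262 and 666). Cells were clustered in scanpy 1.11.5 on 2000 variable genes, 30 principal components and 15 neighbours at a Leiden resolution of 1.0, without the 10 genes and the list genes. Clusters were named from fixed marker lists, but the rule for applying them was set in part after the clusters were seen. Counts were summed per library and class, and classes with under 20 cells in a library were not fitted. The main test was edgeR 4.0.16 (R 4.3.3), a quasi-likelihood fit with TMM scaling, the filterByExpr filter and library as a block, since sums of 1 number come from 1 library. Deviations of same-library sums correlated at 0.0206 to 0.371 over 36 class pairs. P-values were adjusted by the Benjamini-Hochberg method over all genes of a fit, with 0.05 as threshold, and over 14530 genes and 18 sums for classes. In simulated counts for B cells against the other classes, 73% of genes changed by 2 on the log2 scale and 24% of those changed by 1 were recovered. The 10 genes were named throughout. Of the other lists at most 3 genes per comparison were named, by largest log2 difference among those past the threshold with 1 sign in both libraries. Other normalisations, DESeq2 1.42.0, other filters, other thinning and a fit with no replicate block were tried.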

Additional observations from a re-analysis of the deposited data

How the results depend on the processing

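Of the 58 class calls, 52 to 58 held under each of 9 alternatives that allow a test. The lowest number came from plain scaling to total UMIs, where 1 call changed sign, Nfkb1 in neutrophils at -0.59. Of 26 epithelial calls 12 held with plain scaling, with 6 changes of sign. The fit with no replicate block kept 56 of 58 class calls, 27 of 30 in phagocytes, 24 of 30 in lymphoid cells, 23 of 26 in epithelium and 4 of 8 in neutrophils.

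With plain scaling the number of genes higher was 7 in B cells and 3 in endothelium, the number lower was 1 in endothelium, 2 in mast cells and basophils and 2 in neutrophils, 4 changed in goblet-like and 3 in undifferentiated cells, and the lead of neutrophils over B cells for Birc3 became -0.55. With DESeq2, 2 genes had a called highest class, 2 were higher in endothelium, 1 was higher and 2 were lower in lymphoid cells, 5 changed in macrophage-like cells and 2 between immature-like and mature-like neutrophils. With RLE scaling 2 were higher in endothelium and 3 lower in lymphoid cells. With no filter on low counts 2 were higher in endothelium, 7 lower in fibroblasts, 1 lower in lymphoid cells and 3 changed in NK and ILC1-like cells. With no replicate block 5 changed in macrophage-like cells, 0 in NK and ILC1-like cells and 2 between the neutrophil subclasses. With no doublets removed 1 was lower in endothelium, 0 higher in epithelium and 1 lower in lymphoid cells. With a minimum of 500 genes 2 had a called highest class, 1 was lower in endothelium and 7 in fibroblasts. With a mitochondrial limit of 10%, 2 were higher and 1 was lower in endothelium. The cause was not tested. The other 214 class and subclass counts stayed within 1.5 times the reported count. Without 1 replicate each class has 1 sum and no test, and only Rel in CD8 T-like cells changed sign among the called differences, to 0.26 without replicate 1.

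Depth limits the small classes most: mast cells and basophils gave 6 and 2 UMIs of Relb.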
